A study of Homo sapiens with 12 samples.

Results

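Besides *PEG10*, the human genome holds other genes whose protein descends from the gag of a retroelement. Of these, 10 were followed in HEK293 cells that carried additional PEG10: *LDOC1*, *LDOC1L* (newer symbol *RTL6*), *FAM127A* (*RTL8C*), *FAM127B* (*RTL8A*), *PNMA1*, *PNMA2*, *PNMA3*, *MOAP1*, *CCDC8* and *ZCCHC12*. The choice was made by gene family, with earlier results of these data known. All 10 were found among the 26485 gene symbols of the count table, under the older symbols. Of the 17176 genes with enough counts for a test, 9 were members. *PNMA3* was not, and is described by its counts alone.

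Gag is the structural polyprotein of retroviruses and of Ty3-like retrotransposons. Its capsid part assembles into a shell, and its nucleocapsid part holds a CCHC zinc knuckle that binds nucleic acid. A host can keep the reading frame of an old insertion and use it for its own ends, and such a gene is called domesticated. *PEG10* still makes gag and, by a frameshift, gag-pol. *LDOC1*, *LDOC1L* and the RTL8 genes belong to the same family of sushi-ichi-related genes, whereas *PNMA1*, *PNMA2*, *PNMA3*, *MOAP1*, *CCDC8* and *ZCCHC12* belong to the paraneoplastic Ma antigen (PNMA) family, whose proteins are best known as targets of antibodies in neurological disease.

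HEK293 is a human line of embryonic kidney origin, and the cells used here were wild type. Plasmids that encode PEG10 gag-pol, PEG10 gag, its nucleocapsid (NC) or LifeAct-Dendra2, a fluorescent actin marker that served as control, were transfected at 1 μg, and RNA was taken after 48 hr. Each construct has 3 libraries, which the paper calls biological replicates, 12 in all. The sample titles give a replicate number only, which was taken to stand for the passage and harvest of the cells. The paper's model used harvest date and construct, and no dates per library are given in the sources used here. The transfection was transient, so the RNA pools cells with and without plasmid, and a change in how many cells express a gene cannot be told apart from a change per cell.

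Between 30625725 and 45316749 reads were counted per library. *PEG10*, which sums the cell's own and the plasmid's transcript, took 0.0230% to 0.0346% of the counts in control cells. Its share was 2.80% to 7.35% in the gag-pol group, 3.78% to 6.10% for gag and 0.238% to 0.389% for NC, not scaled by the length of the insert. Every PEG10 library thus lay above every control library, as labelled. Of 6 genes known from HEK293 cells, *VIM*, *KRT8*, *KRT18*, *NEFL* and *PAX2* were abundant and *NEFM* had at least 41 counts. The blood and endothelial genes *PTPRC*, *CD3E* and *PECAM1* had at most 30 counts, and *COL1A1* was expressed. The normalized counts of the 6 markers of other cells, *COL1A1* by far the highest, summed to 928 to 1742 in control cells, 810 to 1112 in gag-pol cells, 987 to 1052 in gag cells and 655 to 1010 in NC cells. The part of these markers in the results was not tested. The third library was the lowest of its group for 8 of the 9 tested members in control cells, 5 in gag-pol cells, 7 in gag cells and 7 in NC cells, and results that rest on these libraries are also given without them.

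The CCHC knuckle is the feature of gag that all 3 PEG10 constructs share, since NC is the region of gag that holds it. Translated coding sequences were searched for 2 cysteines, a histidine and a cysteine at retroviral spacing. The pattern was found in 2 of the 10 members, *PNMA3* and *ZCCHC12*, and in *PEG10*, and not in the other 8. The 42 coding bases of each are shown from GRCh38, with the codons of the 4 metal-binding residues in capitals. They lie on the forward strand at chrX:153058295-153058336 for *PNMA3* (exon 2), chrX:118826283-118826324 for *ZCCHC12* (exon 4) and chr7:94664439-94664480 for *PEG10* (exon 2 of the transcript translated as gag).
PNMA3: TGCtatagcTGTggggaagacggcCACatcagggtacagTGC
ZCCHC12: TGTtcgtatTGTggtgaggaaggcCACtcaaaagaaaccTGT
PEG10: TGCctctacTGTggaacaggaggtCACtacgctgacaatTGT

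The knuckle takes residues 347 to 360 of the 402 of *ZCCHC12*, 414 to 427 of the 463 of *PNMA3* and 295 to 308 of the 325 of PEG10 gag, near the end of the protein in each. Aligned whole, the members' proteins had 19.1% (*PNMA1* and *PNMA2*) to 36.3% (*FAM127B*) of the residues of the shorter protein identical to PEG10 gag. By the same measure *FAM127B* had 37.2% identical to *PNMA1*, of the other family. These shares therefore do not rank closeness to PEG10. No transcript of a member shared an exact run of 50 bases with *PEG10*, and the longest shared runs were 11 to 16 bases.

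All 10 members are encoded in a single coding exon, and 5 of them lie on the X chromosome. *FAM127A* (ENSG00000134590.14, chrX:135032355-135033546, forward strand) and *FAM127B* (ENSG00000203950.7, chrX:135050932-135052196, reverse strand) lie close together, next to *FAM127C* (*RTL8B*). Their reading frames of 339 bases differ at 16 positions and are 95.3% identical. Exact runs of at least 50 bases shared with the other RTL8 genes made up 29.4% of the *FAM127A* transcript and 28.6% of the *FAM127B* transcript. How reads with several possible origins were handled is not given in the sources used here, so the counts of this pair are uncertain to that extent. *ZCCHC12* shares 118 bases, 5.37% of its transcript, with *ZCCHC18*, which had only 96 to 164 counts per library.

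To compare levels between genes, CPM of the TMM-scaled library (a count scaled by sequencing depth) were divided by the length of the longest annotated transcript in kilobases. In control cells *FAM127B* was the most abundant member at 60.7 ± 7.54 (SD, n = 3), followed by *FAM127A* at 54.9 ± 6.23, *PNMA1* at 34.2 ± 2.48 and *ZCCHC12* at 27.9 ± 3.15. *MOAP1*, *PNMA2* and *LDOC1L* came next at 21.7 ± 4.15, 20.8 ± 5.16 and 19.3 ± 3.56, and *CCDC8* and *LDOC1* were lower at 11.4 ± 3.20 and 3.08 ± 1.22. The ranges of *FAM127A* and *FAM127B* overlapped, as did those of *MOAP1*, *PNMA2* and *LDOC1L*, and the lowest value of *ZCCHC12*, 25.4, lay under the highest of *MOAP1*, 25.7. *PNMA1* and *ZCCHC12* were apart only narrowly, at 31.5 and 31.4. The pair of RTL8 genes, with the shortest transcripts, led the order in all 4 groups.

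**Figure D1:**
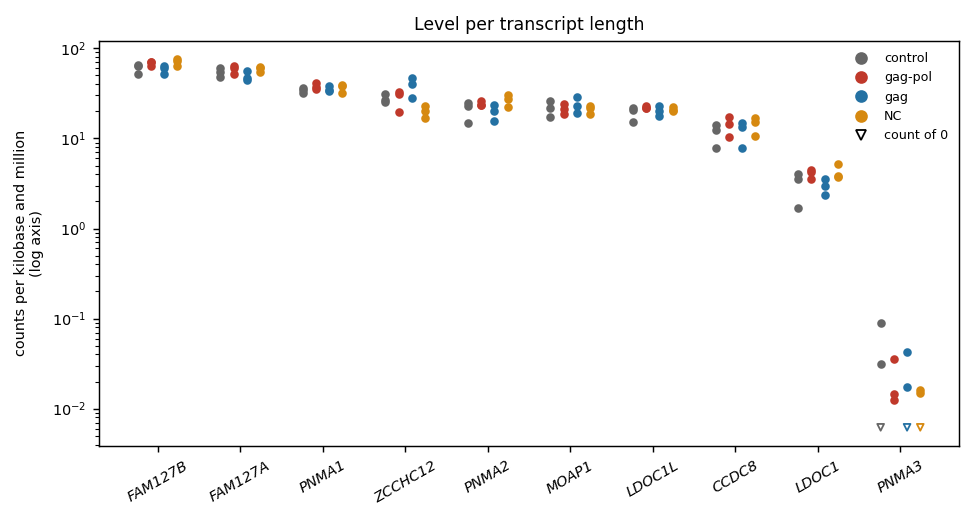
Level of the 10 members as CPM per kilobase of transcript (y axis, log scale) in each of the 12 libraries, coloured by construct. The 9 tested members lie within 1.70 and 75.8, and *PNMA3* lies at or under 0.0898, with its 3 counts of 0 drawn as open triangles under the lowest value.

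*PNMA3* (ENSG00000183837.10, chrX:153056409-153060467, forward strand), the other member with the knuckle, was near the floor of detection. It had 39 counts in all 12 libraries together, of which 14 were in one control library, and 0 in 3 libraries, 1 each of control, gag and NC. A count of 0 allows up to 3 counts, or 0.0727 to 0.0879 CPM at the depth of those libraries. No fold change is given, and a change with any construct was not detectable at this depth. This floor covers counting error only.

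The 9 other members were tested with edgeR's quasi-likelihood test in a single model of the 12 libraries with terms for construct and replicate number, with Benjamini-Hochberg adjustment over the 17176 genes, and were called at an adjusted p under 0.05. In the test of any difference among the 4 constructs, 5 of 9 members were called (*ZCCHC12*, *PNMA2*, *CCDC8*, *LDOC1* and *FAM127B*), beside 20.6% of all genes tested. The same test without the replicate number as a term called 0 members, in this and in each comparison of constructs, so every call of a member between constructs rests on comparing libraries within a replicate number.

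*ZCCHC12* (ENSG00000174460.4, chrX:118823824-118826968, forward strand) had the largest difference between 2 constructs of any member, that of NC and gag. Its protein, also called SIZN1, is known as a coactivator in bone morphogenetic protein signalling. Its normalized counts, scaled to the mean library, were 2097, 2219 and 2596 in control replicates 1, 2 and 3, and 2594, 1631 and 2675 with gag-pol. They were 3320, 2345 and 3827 with gag, and 1673, 1396 and 1910 with NC. All 3 NC libraries were lower than every control and every gag library, while gag-pol spanned the control values. Of all genes tested, 9.5% had NC and control groups that did not overlap, and 14.4% had NC and gag groups that did not.

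With NC, *ZCCHC12* fell to 72.0% of the control mean (log2 fold change -0.49 ± 0.10, SE, adjusted p = 0.00645 in edgeR's quasi-likelihood test). With gag it rose to 137% (0.43 ± 0.10, adjusted p = 0.0457), in 3 of 3 replicates, although the second gag library lay within the control range. With gag-pol the log2 fold change was -0.03 ± 0.10 (95% interval -0.25 to 0.18, adjusted p = 0.868), and 1 of 3 replicates was lower. NC and gag thus took this gene to opposite sides of the control, and the direct comparison of the 2 constructs is given with the other members.

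The call of *ZCCHC12* with gag was lost in 9 of the 15 analyses made without some library or replicate number, namely control replicates 1 or 3, any gag replicate, NC replicates 1 or 3, and replicates 1 or 3 in all groups. There its log2 fold change was 0.30 to 0.51, and it was 0.38 with an adjusted p of 0.108 in edgeR's test without control replicate 3. The fall with NC was lost in 2 of the 15, without control replicate 2 (log2 fold change -0.32, adjusted p = 0.0634) and without replicate 3 in all groups (-0.51, adjusted p = 0.0967).

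The promoter of *ZCCHC12* is shown because this was the only member called lower with NC. The window of 300 bases runs from 250 before to 50 after the annotated start, from RefSeq on GRCh38.p14, chrX:118823574-118823873, forward strand. Capitals mark 3 kinds of element in either orientation, none of which overlapped. The GC box, GGGCGG, has 3 copies here. The CCAAT box has 2. The TATA box was searched as the exact letters TATAAA, which do not occur. Near matches, such as gataaa in this window, were not searched. Of the bases, 65.7% are G or C.
ZCCHC12: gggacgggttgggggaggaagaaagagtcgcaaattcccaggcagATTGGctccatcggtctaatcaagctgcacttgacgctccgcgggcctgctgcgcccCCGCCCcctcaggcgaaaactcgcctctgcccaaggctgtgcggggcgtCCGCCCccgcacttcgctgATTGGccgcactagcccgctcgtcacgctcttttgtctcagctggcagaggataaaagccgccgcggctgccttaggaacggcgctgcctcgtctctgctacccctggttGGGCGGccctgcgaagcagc

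*LDOC1* (ENSG00000182195.9, chrX:141111605-141177129, reverse strand) encodes a short nuclear leucine zipper protein and was the least abundant of the tested members. Its normalized counts were 584, 522 and 248 in control replicates 1, 2 and 3, and 657, 619 and 519 with gag-pol. They were 513, 439 and 344 with gag, and 758, 565 and 547 with NC. The third control library was the lowest of all 12, every gag-pol and NC library was above every gag library, and the control libraries overlapped with all constructs.

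*LDOC1* rose with NC to 138% of control (log2 fold change 0.51 ± 0.15, SE, adjusted p = 0.0355, edgeR's quasi-likelihood test). With gag-pol the value was 0.46 ± 0.15 (adjusted p = 0.0549), which missed the threshold, and with gag -0.03 ± 0.15 (adjusted p = 0.963). The call was lost in 5 of 15 fits, without control replicate 3, NC replicates 1 or 3, and replicates 1 or 3 in all groups, and with only the compared groups in the fit (adjusted p = 0.0524 in edgeR). Without control replicate 3 the NC value was 0.27 and its adjusted p 0.295 by edgeR's test, and without replicate 3 in all groups the value was 0.25.

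The same window of *LDOC1* (chrX:141177080-141177379, reverse strand of GRCh38.p14) is set beside that of *ZCCHC12* for comparison. It holds 4 copies of GGGCGG, neither of the other motifs, and 73.0% G or C, whereas the median of all 35116 promoters was 58.7%.
LDOC1: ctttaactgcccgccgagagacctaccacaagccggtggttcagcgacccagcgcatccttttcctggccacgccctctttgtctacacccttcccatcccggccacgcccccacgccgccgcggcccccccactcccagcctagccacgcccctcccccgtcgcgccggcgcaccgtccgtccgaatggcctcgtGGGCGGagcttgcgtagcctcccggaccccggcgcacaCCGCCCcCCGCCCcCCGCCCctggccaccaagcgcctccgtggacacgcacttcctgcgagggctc

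A promoter of RefSeq was matched and searched for 7 of the 10 members. None was matched for *FAM127A* or *PNMA1*, and *PNMA2*, on chromosome 8, was left out of the search. All 7 held GGGCGG, from 1 copy in *CCDC8* to 6 in *LDOC1L*, against 45.0% of all promoters. CCAAT was found in 3 of the 7 (*LDOC1L*, *PNMA3* and *ZCCHC12*) and in 34.6% of all promoters, and TATAAA in none of the 7 and in 11.5% of all promoters. These matches describe the letters of the window only.

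*FAM127A* and *FAM127B* encode RTL8 proteins of 113 residues, little more than a fragment of a capsid. *FAM127B* had 2896, 2984 and 2355 normalized counts in control replicates 1, 2 and 3, 3161, 3170 and 2851 with gag-pol, 2770, 2879 and 2361 with gag, and 3299, 3432 and 2856 with NC. It was higher than control in 3 of 3 replicates with gag-pol (log2 fold change 0.16 ± 0.07, SE) and with NC (0.22 ± 0.07), with adjusted p = 0.154 and 0.0532 in edgeR's test, and it passed the threshold in neither. With gag its log2 fold change was -0.04 ± 0.07, and every group overlapped with control.

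*FAM127A* had 2474, 2729 and 2172 normalized counts in control cells, 2332, 2824 and 2730 with gag-pol, 1972, 2513 and 2089 with gag, and 2780, 2713 and 2465 with NC. Its log2 fold changes against control were 0.10 ± 0.09, -0.17 ± 0.09 and 0.11 ± 0.09, and its adjusted p was at least 0.425 in the 3 edgeR tests. Gag was lower than control in 3 of 3 replicates, and the groups overlapped. The third copy, *FAM127C*, was at 0.26 ± 0.09, 0.11 ± 0.09 and 0.14 ± 0.09, and was not called either.

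*LDOC1L* (ENSG00000188636.4, chr22:44492583-44498233, reverse strand), a longer relative of *LDOC1*, had 4228, 4443 and 3095 normalized counts in control replicates 1, 2 and 3, 4666, 4442 and 4454 with gag-pol, 4687, 4100 and 3647 with gag, and 4101, 4503 and 4212 with NC. The third control library was again the lowest of the 12, and the groups overlapped. Its log2 fold changes against control were 0.22 ± 0.09, 0.08 ± 0.09 and 0.14 ± 0.09 with gag-pol, gag and NC, and its adjusted p was at least 0.127 in the edgeR tests.

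*CCDC8* (ENSG00000169515.9, chr19:46410329-46413564, reverse strand) encodes a protein that joins CUL7 and OBSL1 in the 3M complex, whose genes are mutated in a growth disorder. It had 1694, 1510 and 948 normalized counts in control replicates 1, 2 and 3, and 2127, 1770 and 1252 with gag-pol. It had 1812, 1619 and 964 with gag and 2052, 1856 and 1296 with NC. The third library was the lowest in every group, and within each replicate number gag-pol and NC were above control.

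*CCDC8* rose with gag-pol to 124% of control (log2 fold change 0.32 ± 0.08, SE, adjusted p = 0.0176, edgeR) and with NC to 125% (0.34 ± 0.08, adjusted p = 0.0136), and its value with gag was 0.08 ± 0.09 (adjusted p = 0.765). It was the only member called with gag-pol. Its call with gag-pol was lost in 5 of 15 fits, without control replicate 3, gag-pol replicates 1 or 3, and replicates 1 or 3 in all groups. The call with NC was also lost in 5, without control replicate 3, NC replicate 3 and each replicate number in turn. Without control replicate 3 the values were 0.30 and 0.32, with adjusted p = 0.0722 and 0.0756 by edgeR's test.

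*PNMA2* (ENSG00000240694.9) lies on the reverse strand of chromosome 8, from 26504701 to 26514092, and encodes a brain antigen whose protein can form capsid-like shells. It had 4095, 4349 and 2648 normalized counts in control replicates 1, 2 and 3, and 4166, 4593 and 4130 with gag-pol. It had 3614, 4198 and 2759 with gag and 4900, 5424 and 4009 with NC. Replicate 3 of control and of gag was low, and within each replicate number NC was above control and gag.

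*PNMA2* rose with NC to 129% of control (log2 fold change 0.39 ± 0.09, SE, adjusted p = 0.0112, edgeR's quasi-likelihood test). The value was 0.25 ± 0.09 with gag-pol (adjusted p = 0.0820) and -0.06 ± 0.09 with gag (adjusted p = 0.834). Its call with NC was lost in 3 of 15 fits, without control replicate 3, NC replicate 3 and replicate 1 in all groups. Without control replicate 3 the value was 0.27 with an adjusted p of 0.111 in edgeR. Exons of *PNMA2* share 330 bases with *BNIP3L* and 62 with *DPYSL2* on the opposite strand, and the strand setting of the counting is not given in the sources used here. *DPYSL2* was itself higher with NC than in control (0.37 ± 0.09, adjusted p = 0.00992 in edgeR), while *BNIP3L* was at 0.18 ± 0.09 (adjusted p = 0.176). Against gag, both were higher with NC, *BNIP3L* by 0.40 ± 0.09 (adjusted p = 0.00439) and *DPYSL2* by 0.53 ± 0.09 (adjusted p = 0.000766, edgeR), and with gag-pol *DPYSL2* was higher by 0.40 ± 0.09 (adjusted p = 0.0106) and *BNIP3L* was at 0.11 ± 0.09. The part of these genes in the counts of *PNMA2* was not tested.

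*PNMA1* (ENSG00000176903.5, chr14:73711783-73714384, reverse strand) encodes another Ma antigen. It had 3083 to 3565 normalized counts in control cells, 3437 to 4072 in gag-pol cells, 3259 to 3768 in gag cells and 3125 to 3871 in NC cells. These ranges overlapped, and its log2 fold changes against control were 0.16 ± 0.08, 0.05 ± 0.08 and 0.09 ± 0.08, with adjusted p of at least 0.184 in the edgeR tests.

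*MOAP1* (ENSG00000165943.5, chr14:93182199-93184923, reverse strand) encodes a BAX-binding protein of the death receptor pathway. It had 2447, 2075 and 1658 normalized counts in control replicates 1, 2 and 3, 2279, 2039 and 1773 with gag-pol, 2742, 2150 and 1805 with gag, and 2167, 2051 and 1765 with NC. The differences from control were -0.01 ± 0.08, 0.11 ± 0.08 and -0.03 ± 0.08 (log2, SE), with 95% intervals from -0.18 to 0.16, -0.06 to 0.28 and -0.21 to 0.14. Its values followed the replicate number far more than the construct.

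**Figure D2:**
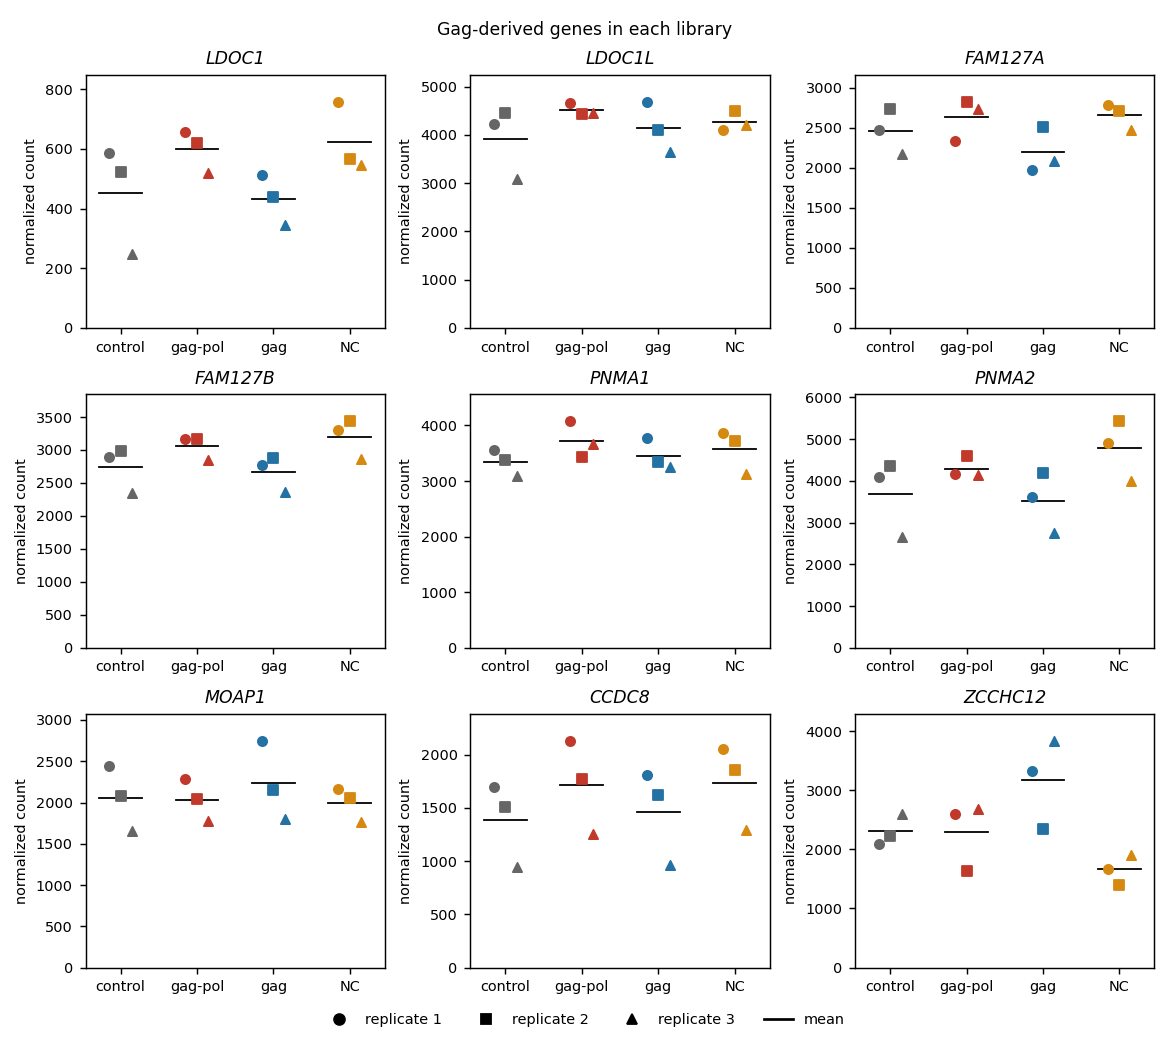
Normalized counts (y axes, from 0) of the 9 tested members in each library, by construct, with a marker for each replicate number and a line at the group mean. NC libraries of *ZCCHC12* lie from 1396 to 1910 and under all control and gag libraries, and the third control library of *LDOC1*, at 248, is the lowest of its panel.

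Counted over the members, 1 of 9 was called with gag-pol (1 higher), beside 11.3% of all genes, 1 of 9 with gag (1 higher), beside 1.08%, and 4 of 9 with NC (3 higher and 1 lower), beside 11.2%. With gag-pol and gag a single gene sets the share, and the 3 comparisons use the same control libraries. The median log2 fold change of the 9 members was 0.16 in the comparison of gag-pol, 0.05 in that of gag and 0.14 in that of NC, where the medians of all genes tested were -0.0014, 0.0027 and 0.0040. The value was above 0 for 7, 5 and 7 of the 9. The share of all genes above 0 is not given here. Several members were correlated across libraries, so the 9 values are not independent and show no shift of the family. Without control replicate 3 the calls were 0, 0 and 1, the last being *ZCCHC12*, and without replicate 3 in all groups 0, 0 and 1, then *PNMA2*. For fits other than the main one, here and in the comparisons that follow, the share of all genes called is not given.

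**Figure D3:**
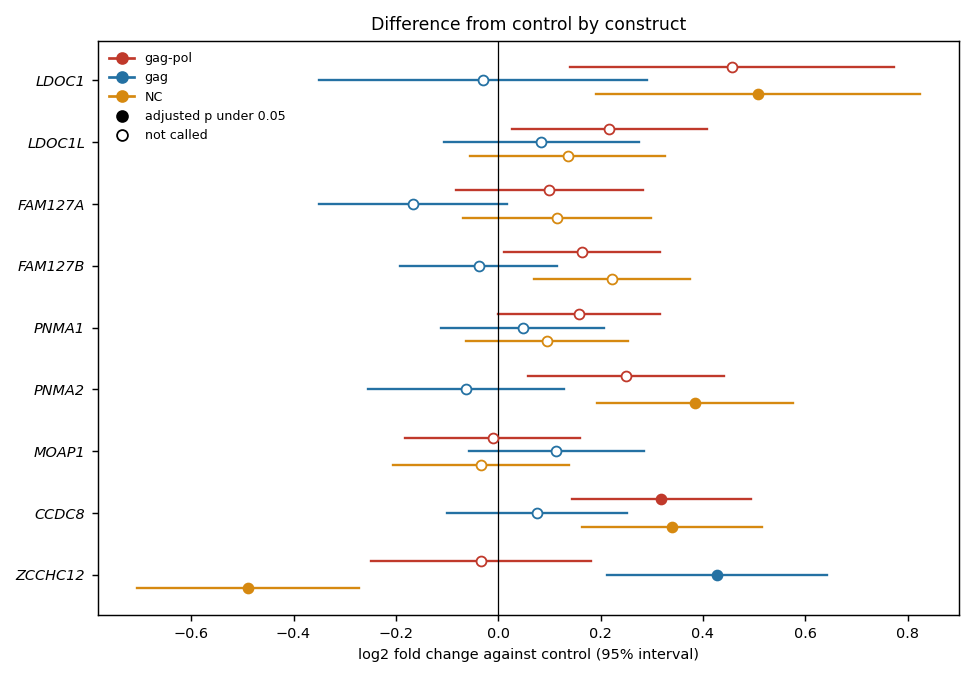
Log2 fold change against control (x axis) with its 95% interval for the 9 tested members and 3 constructs, filled where the adjusted p was under 0.05. *ZCCHC12* lies at 0.43 with gag and -0.49 with NC, and *LDOC1*, *PNMA2* and *CCDC8* lie from 0.25 to 0.51 with gag-pol and NC and from -0.06 to 0.08 with gag.

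NC is a part of gag, and the comparison of NC with gag sets cells given the part beside cells given the whole. The groups also differed in the share of *PEG10* counts, 0.238% to 0.389% with NC, 3.78% to 6.10% with gag and 2.80% to 7.35% with gag-pol. The PEG10 inserts differ in length, NC being the shortest and gag-pol the longest. The shares are not scaled by this length, so they do not compare the amounts of transcript. The part of the shares in the comparisons of constructs was not tested. Between NC and gag, 6 of 9 members were called (5 higher and 1 lower), beside 16.9% of all genes. *ZCCHC12* was lower with NC in 3 of 3 replicates, at 52.5% of the gag mean (log2 fold change -0.92 ± 0.10, SE, adjusted p = 0.000261, edgeR's quasi-likelihood test), and had the lowest p-value of all 17176 genes. The call was kept in all 15 fits without a library or a replicate number, at -0.99 to -0.86, and in all 8 other fits with the replicate number as a term.

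The 5 members that were higher with NC than with gag were *LDOC1* (0.54 ± 0.15, adjusted p = 0.0196 in edgeR's test), *PNMA2* (0.45 ± 0.09, adjusted p = 0.00300), *FAM127A* (0.28 ± 0.09, adjusted p = 0.0322), *CCDC8* (0.26 ± 0.08, adjusted p = 0.0349) and *FAM127B* (0.26 ± 0.07, adjusted p = 0.0189). Only *LDOC1* and *ZCCHC12* had groups that did not overlap, as did 14.4% of all genes. *MOAP1*, at -0.15 ± 0.08, was lower in 3 of 3 replicates and not called, and *PNMA1* and *LDOC1L* were at 0.05 ± 0.08 and 0.05 ± 0.09. Without gag replicate 3, 2 members were called, *PNMA2* and *ZCCHC12*. Over the 15 fits without a library or a replicate number, *PNMA2* was called in 14, *FAM127A* in 10, *LDOC1* and *FAM127B* in 9 each and *CCDC8* in 6. With only the compared groups in the fit, 4 members were called, and *FAM127A* and *CCDC8* were not, at adjusted p = 0.0591 and 0.0774 in edgeR.

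**Figure D4:**
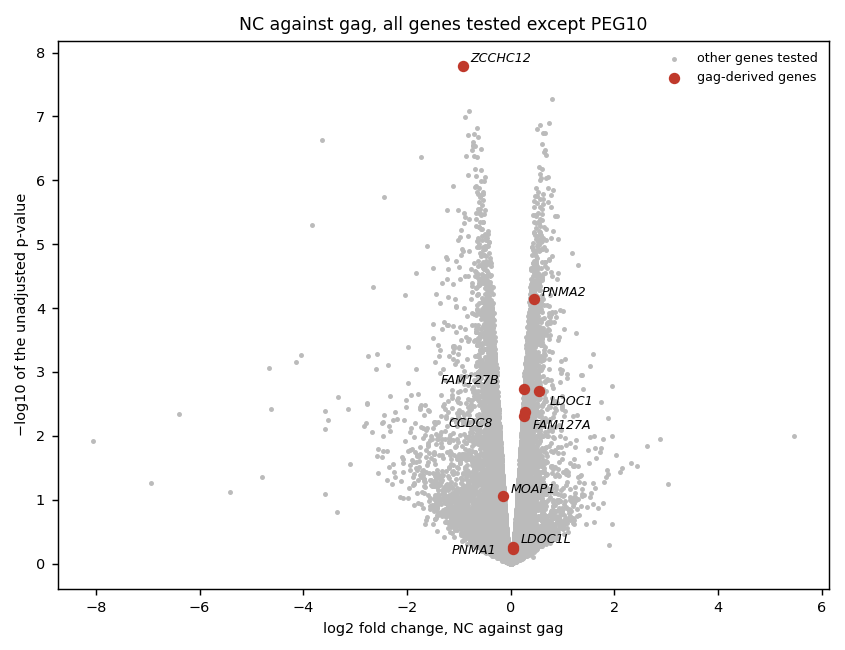
Log2 fold change of NC against gag (x axis) and −log10 of the unadjusted p-value (y axis) for all genes tested except *PEG10*, with the 9 members in red. *ZCCHC12* stands at the top of the plot at -0.92, and the 5 called members that were higher with NC lie between 0.26 and 0.54.

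Gag-pol was compared with gag in the same way, and 2 of 9 members were called (1 higher and 1 lower), beside 6.46% of all genes. *PNMA2* was higher with gag-pol (0.31 ± 0.09, adjusted p = 0.0455 in edgeR) and *ZCCHC12* was lower (-0.46 ± 0.10, adjusted p = 0.0116), each in 3 of 3 replicates. *PNMA2* was called in 7 and *ZCCHC12* in 9 of the 15 fits without a library or a replicate number. *LDOC1* was at 0.49 ± 0.15 with an adjusted p of 0.0572 by the same edgeR test, and *FAM127A* at 0.27 ± 0.09 with 0.0710. Of the 9 members, 1 had groups that did not overlap here, *LDOC1*, beside 12.7% of all genes. Without gag replicate 3 no member was called, and without control replicate 3, which enters the fit only through the shared spread and the replicate means, 4 were.

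Between NC and gag-pol, 0 of 9 members were called by edgeR, beside 0.0873% of all genes. *ZCCHC12* alone had an unadjusted p under 0.05, at -0.46 ± 0.10 and an adjusted p of 0.0777 in edgeR's test, and DESeq2 called 1 member. For the other 8 each 95% interval of the log2 fold change held 0, and the intervals differed in width. That of *LDOC1* was the widest, from -0.26 to 0.36, and that of *FAM127B* the narrowest, from -0.09 to 0.21.

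When the mean of gag-pol and NC was set against the mean of gag and control, 6 of 9 members were called (5 higher and 1 lower), beside 24.7% of all genes. The values were 0.50 ± 0.11 for *LDOC1*, 0.35 ± 0.07 for *PNMA2*, 0.29 ± 0.06 for *CCDC8*, 0.21 ± 0.05 for *FAM127B*, 0.19 ± 0.06 for *FAM127A* and -0.47 ± 0.07 for *ZCCHC12*, with adjusted p-values by edgeR from 0.000180 (*ZCCHC12*) to 0.0291 (*FAM127A*). *PNMA1*, *LDOC1L* and *MOAP1* were at 0.10 ± 0.05, 0.13 ± 0.07 and -0.08 ± 0.06. Between 4 and 6 members were called when a library or a replicate number was left out. *LDOC1*, *PNMA2*, *CCDC8* and *ZCCHC12* were called in all 15 of these fits, *FAM127B* in 14, all but that without replicate 1, and *FAM127A* in 8. The call of *FAM127A* was lost without control replicate 3 (adjusted p = 0.0889 in edgeR), gag-pol replicate 3, gag replicates 1 or 3 (0.0565 without the latter), NC replicate 1, and replicates 1 or 3 in all groups.

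Replicate number moved the members as well, and 7 of 9 differed between replicate numbers, beside 52.8% of all genes. *CCDC8* had an adjusted p of 1.06e-07 and *MOAP1* of 8.37e-05 in edgeR's test, and *LDOC1L* and *FAM127A* were not called. Of the sum of squares of log2 CPM, replicate number took 84.4% for *MOAP1* and 82.4% for *CCDC8*, and construct took 62.9% for *ZCCHC12*, 45.5% for *FAM127B* and 45.3% for *FAM127A*. The share left over was 1.70% for *CCDC8* and 40.5% for *LDOC1L*. More of the variation of *CCDC8* therefore lay between replicate numbers than between constructs, and little was left once both were taken.

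**Figure D5:**
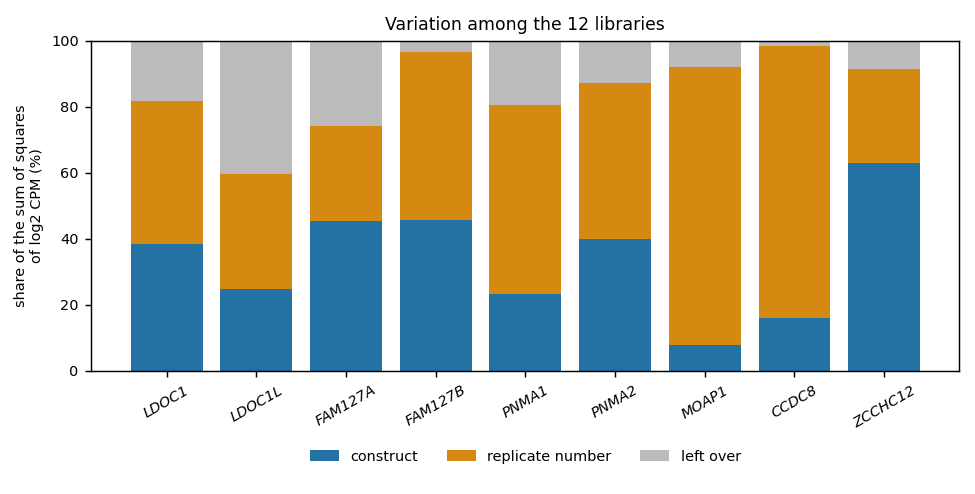
Share of the sum of squares of log2 CPM (y axis, %) that construct, replicate number and neither took, for each tested member over the 12 libraries. Construct took from 7.78% (*MOAP1*) to 62.9% (*ZCCHC12*).

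After replicate means were removed, the members fell into patterns across the 12 libraries. *FAM127B* and *PNMA2* had a Pearson's r of 0.96, *FAM127B* and *CCDC8* of 0.92 and *LDOC1* and *PNMA2* of 0.90. *ZCCHC12* ran against them, with r of -0.76 with *FAM127B* and -0.73 with *PNMA2*, and with *MOAP1* it was 0.61. These coefficients describe 12 libraries that share constructs and replicate numbers, and no test is given.

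The genes most like each called member over the same 12 libraries, of 17175 others, were *LGALSL* and *SDK2* for *LDOC1* (r = 0.99 for each), *CD99L2* and *RPS6KA2* for *FAM127B* (0.99 for each), *SERPINB6* and *PYGL* for *PNMA2* (0.99 for each), *LYRM9* and *ADAMTS8* for *CCDC8* (0.98 for each) and *TDG* and *ASB6* for *ZCCHC12* (0.96 and 0.95). Among the HEK293 markers, *NEFL* and *VIM* were higher with NC than in control, at log2 fold changes of 0.75 ± 0.12 and 0.36 ± 0.08 (adjusted p = 0.00243 and 0.00969, edgeR). The other markers did not all go this way. Mean normalized counts in control and NC cells were 95.1 and 88.9 for *NEFM*, 10049 and 10802 for *KRT8*, 3141 and 3353 for *KRT18*, and 597 and 670 for *PAX2*. Of the 6 markers, 2 differed among the constructs. Of the markers of other cells, *COL1A1* was lower with NC (-0.55 ± 0.15, adjusted p = 0.0224 in edgeR's test) and *ALB*, at 6 to 52 normalized counts, was lower with gag-pol (-2.09 ± 0.53, adjusted p = 0.0127). The part of either in the members' values was not tested.

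Further gag-derived genes were listed from the PNMA and RTL families together with *ARC*, a neuronal gene whose protein forms capsids. Of 17, 13 were in the table and 8 were tested. Against control, 1 of 8 was called for gag-pol, 0 for gag and 0 for NC by edgeR, beside 11.3%, 1.08% and 11.2% of all genes. At an unadjusted p under 0.05 were 4, 1 and 3 of the 8, and 4696, 2347 and 4650 of all 17176 genes. The gene called against control was *C22orf29* (*RTL10*), at 0.38 ± 0.11 with gag-pol (adjusted p = 0.0326, edgeR). Between NC and gag, 1 of 8 was called, beside 16.9% of all genes.

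*ARC*, tested in the same list, was lower with NC than with gag, as *ZCCHC12* was, and was picked out after its values were seen. Its normalized counts were 1662, 1907 and 2948 in control replicates 1, 2 and 3, 3705, 2897 and 4058 with gag-pol, 4072, 4472 and 4365 with gag, and 1056, 1584 and 2453 with NC. All gag libraries were above all control and all NC libraries. Of all genes tested, gag did not overlap with control for 7.11%, nor with NC for 14.4%. NC against gag was -1.41 ± 0.23 (adjusted p = 0.00723 in edgeR), while against control gag was at 1.04 ± 0.23 (adjusted p = 0.0965) and NC at -0.37 ± 0.23 (adjusted p = 0.345).

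Genes derived from the pol or env of retroelements were 10 in the list, and 9 were tested. Against control, 0, 1 and 0 were called with gag-pol, gag and NC, beside 11.3%, 1.08% and 11.2% of all genes. At an unadjusted p under 0.05 in edgeR were 1, 2 and 1 of the 9, and 4696, 2347 and 4650 of all 17176 genes. The one called was *NYNRIN*, with a pol-derived integrase part, which fell with gag (-0.40 ± 0.09, adjusted p = 0.0348 in edgeR's test) from 1693 to 2446 normalized counts in control cells to 1318 to 1643. Gag did not overlap with control for this gene, nor for 7.11% of all genes tested.

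Of 12 partners of *MOAP1* and *CCDC8*, 3 were called for gag-pol, 0 for gag and 3 for NC by edgeR, beside 11.3%, 1.08% and 11.2% of all genes. With gag, 2 of the 12 had an unadjusted p under 0.05, as did 2347 of all 17176 genes. The 3 genes called were the same for gag-pol and NC. *RASSF1*, which binds MOAP1 to release it for BAX, fell with gag-pol (-0.52 ± 0.10, adjusted p = 0.00318) and NC (-0.37 ± 0.10, adjusted p = 0.0266, edgeR). *BAX*, the pore-forming effector of apoptosis, fell with both (-0.39 ± 0.11 and -0.41 ± 0.11), and *BCL2*, its opponent, rose with both (0.43 ± 0.12 and 0.48 ± 0.12), with adjusted p-values by edgeR from 0.0140 to 0.0273. *CUL7*, *OBSL1* and the other partners of *CCDC8* were not called against control, and gag-pol and NC were compared with the same control libraries.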

How the data were processed

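Poly(A) RNA of 12 libraries was sequenced as read pairs. Per the paper and the labels, the authors mapped reads to GRCh38.p13 with STAR 2.7.3, used SAMtools 1.8 and counted reads per gene with featureCounts. The deposited values are these raw counts, 1 column per library; annotation release, strand setting and treatment of multimapping reads are not given in the sources used here. Libraries were grouped by construct, with the replicate number of the titles taken to stand for passage and harvest. The paper itself modelled harvest date beside construct.

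Counts were analysed with edgeR 4.0.16 (limma 3.58.1, R 4.3.3): TMM factors, a filter by construct (minimum count 10, minimum total 15), and the robust quasi-likelihood test in a single model of the 12 libraries with terms for construct and replicate number (6 residual degrees of freedom). Benjamini-Hochberg adjustment ran over 17176 genes, with a threshold of 0.05. The deposited totals of 30625725 to 45316749 counts and the common coefficient of variation of 10.7% set the precision. Replicate numbers paired the libraries: deviations from construct means correlated at 0.113 to 0.469 in 18 same-number pairs and at -0.442 to 0.0644 in 36 others. The test was tried on simulated counts.

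Normalized counts are counts over the TMM-scaled library size, times the mean total. Positions and coding sequences are from GENCODE release 44 (Biopython 1.88, BLAST+ 2.17.0, Python 3.11.15) and promoters from RefSeq on GRCh38.p14. Tables and figures were made with pandas 2.3.3 and matplotlib 3.10.9. Alternatives were DESeq2 1.42.0, upper-quartile or RLE factors, totals without *PEG10*, a minimum of 10 counts throughout, no filter, no replicate number, no robust estimation, only the compared groups, and leaving out each library or replicate number. The members and lists were chosen with earlier results of these data known. Named genes are the members, genes of the other lists past the threshold against control, *PEG10* and, for each called member, the 2 genes of highest Pearson's r over the libraries. *ARC*, chosen after its values were seen, neighbours and near copies of members (*BNIP3L*, *DPYSL2*, *ZCCHC18*, *FAM127C*), the marker genes and the partners *CUL7* and *OBSL1* are named outside this rule. The coding sequences of *FAM127A* and *FAM127B* are not reported here.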

Additional observations from a re-analysis of the deposited data

Results flagged for a closer look

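Groups of 3 libraries are too small for a test of outlying samples. The effects of 2 constructs on the same member, each against control, were compared by the direct test of one construct against the other, and 8 differences passed the threshold in edgeR's quasi-likelihood test. Between NC and gag they were -0.92 for *ZCCHC12*, 0.54 for *LDOC1*, 0.45 for *PNMA2*, 0.28 for *FAM127A*, 0.26 for *CCDC8* and 0.26 for *FAM127B*, as log2 fold changes of NC over gag. Between gag-pol and gag they were -0.46 for *ZCCHC12* and 0.31 for *PNMA2*. All 8 had the same direction in 3 of 3 replicates, and none passed the threshold without the replicate number as a term.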

How the results depend on the processing

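The replicate number as a term decides the calls. Without the replicate block, 0 members were called for gag-pol, gag or NC against control, for gag-pol against gag, NC against gag and the paired means, and among the 4 constructs, where the main counts were 1, 1, 4, 2, 6, 6 and 5. Other settings moved the counts of 4 comparisons by over 1.5 times. For gag-pol against control the count was 2 with DESeq2, 3 with no filter and 0 with only the compared groups. For gag-pol against gag it was 1 with upper-quartile factors and without robust estimation, 4 with no filter and 6 with only the compared groups. For NC against gag-pol it was 1 with DESeq2, with no filter and with only the compared groups. For gag against control it was 0 with upper-quartile factors and without robust estimation. For these settings and the left-out libraries below, the share of all genes called is not given here. A moved count is therefore not read as particular to the members.

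Leaving out a library or a replicate number gave 0 to 3 calls for gag-pol, 0 to 1 for gag and 1 to 5 for NC against control, 0 to 4 for gag-pol against gag, 1 to 6 for NC against gag, 0 to 1 for NC against gag-pol, 4 to 6 for the paired means, 2 to 6 among the 4 constructs and 6 to 9 among replicate numbers.

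Beside the replicate block and left-out libraries, single calls were lost with upper-quartile factors and without robust estimation (*ZCCHC12* in gag against control, *PNMA2* in gag-pol against gag) and with only the compared groups (*CCDC8* in gag-pol against control and NC against gag, *LDOC1* in NC against control, *FAM127A* in NC against gag), at adjusted p-values by edgeR of 0.0524 to 0.0774. Of 474 values called in the main analysis and recomputed under an alternative, 368 stayed called, 106 lost the call and 0 changed sign. Sign changes occurred in 36 values, all of them not called and all with a library or replicate number left out. Their log2 fold changes over these fits ran, for gag-pol against control, from -0.024 to 0.20 for *FAM127A*, -0.071 to 0.046 for *MOAP1* and -0.19 to 0.18 for *ZCCHC12*. For gag against control they ran from -0.26 to 0.13 for *LDOC1*, -0.034 to 0.19 for *LDOC1L* and -0.18 to 0.013 for *PNMA2*. For NC against control they ran from -0.0093 to 0.23 for *LDOC1L* and -0.093 to 0.041 for *MOAP1*, and for NC against gag from -0.020 to 0.18 for *LDOC1L* and -0.0097 to 0.11 for *PNMA1*. For NC against gag-pol they ran from -0.081 to 0.17 for *LDOC1*, -0.17 to 0.0021 for *LDOC1L*, -0.11 to 0.11 for *FAM127A*, -0.15 to 0.030 for *PNMA1*, -0.076 to 0.039 for *MOAP1* and -0.037 to 0.059 for *CCDC8*. For the paired means *MOAP1* ran from -0.13 to 0.0030. The cause was not tested, beyond the smaller number of libraries in these fits.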
